A study of Saccharomyces cerevisiae with 2 samples.

Results

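The 6 genes described here are the 5 aldehyde dehydrogenase genes ALD2, ALD3, ALD4, ALD5 and ALD6 of Saccharomyces cerevisiae and ACS2, an acetyl-CoA synthetase gene. They were chosen by gene name, and each of the 6 had a row among the 7126 rows of the table. The table itself gave the symbols ALD4 and ALD6, and the other 4 were found through their systematic names. Expression was measured by RNA-seq in the carotenoid producer BL03-D-4 after 24 h of cultivation, in 1 library from YPM medium and 1 library from YPD2 medium, which the sample labels call YPD. YPM is a modified YPD. It differed from YPD2 in the manufacturer and lot of the yeast extract and in added phosphate and sulfate salts and trace metals, so the parts of the medium cannot be told apart. Both libraries come from the same strain, which derives from BY4742 and was started from a picked colony. GAL80 was replaced by crtB, crtI and crtE for carotenoid synthesis, all driven by the HSP26 promoter. A truncated HMG-CoA reductase behind the CIT1 promoter was inserted at another genomic site, and ALD6 was deleted in both cultures.

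In yeast, pyruvate decarboxylase turns pyruvate into acetaldehyde, which is either reduced to ethanol or oxidised to acetate by an aldehyde dehydrogenase. Acetyl-CoA synthetase then joins acetate to coenzyme A. This route around the mitochondrial pyruvate dehydrogenase is the main supply of cytosolic acetyl-CoA on glucose, and the mevalonate pathway to sterols and carotenoids starts from it. Ald6 is the main cytosolic enzyme of the route on glucose and also a source of NADPH, Ald4 and Ald5 work in mitochondria, and Ald2 and Ald3 are cytosolic enzymes that use NAD and also make beta-alanine for pantothenate. The comparison addresses how the remaining isozymes were expressed in a strain without ALD6 after 24 h in YPM, against YPD2. The paper places cultures of about 24 h in stationary phase and reports that YPM reached a higher cell mass. Whether both cultures were at the same stage was not tested.

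The values of ALD2 and ALD3 depend on how reads were divided between them, so their sequences are given here. Both genes lie on the minus strand of chromosome XIII, ALD3 (YMR169C) at chrXIII:599352-600872 and ALD2 (YMR170C) at chrXIII:601562-603082 in the R64 reference genome, with 689 bases between them. Their coding sequences of 1521 bases align without a gap and differ at 125 bases, an identity of 91.8%. The differences are not spread evenly. The first 329 bases are identical, as are the 13 bases just before the start codon. The stretch in which this identical run ends, coding bases 270 to 389, is shown for both genes, with the 15 bases that differ in capitals (chrXIII:600484-600603 for ALD3 and chrXIII:602694-602813 for ALD2, minus strand, R64).
ALD3: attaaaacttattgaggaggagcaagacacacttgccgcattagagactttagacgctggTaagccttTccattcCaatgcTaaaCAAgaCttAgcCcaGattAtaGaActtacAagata
ALD2: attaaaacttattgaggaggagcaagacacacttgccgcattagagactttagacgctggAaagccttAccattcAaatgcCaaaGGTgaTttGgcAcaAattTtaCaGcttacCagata

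Of the 50-base words of each of these coding sequences, 40.4% also occur in the other gene, and every shared word lies in the other gene of this pair. A read from such a stretch cannot be assigned to ALD2 or ALD3 by its sequence. The coding sequences of ALD4, ALD5, ALD6 and ACS2 had no 50-base word elsewhere in the genome. Between other pairs of the ALD genes, aligned bases were 59.6% to 65.5% identical, highest for ALD4 and ALD5. None of the 6 genes overlaps another annotated gene in R64.

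**Figure D1:**
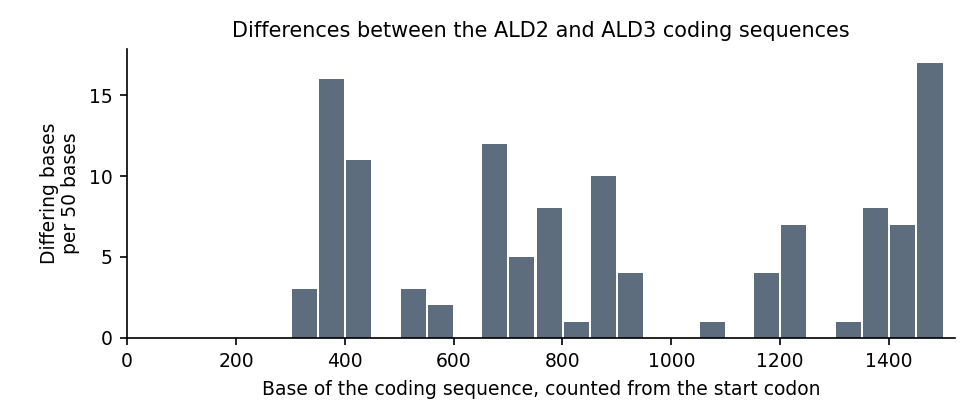
Number of bases that differ between the ALD2 and ALD3 coding sequences in successive windows of 50 bases (y axis) along the coding sequence, counted from the start codon (x axis); the last bases after the 30 full windows are not drawn. In 12 of the 30 windows there is no difference, and the most in a window is 17.

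ALD6 (YPL061W), the cytosolic NADP-dependent enzyme, is the deleted gene, and its row was listed at 0 TPM in both libraries. TPM, a length-corrected relative abundance, divides the estimated reads of a gene by its transcript length and sets them against the sum over all genes. Read numbers are lost in this step, so no detection limit can be given for these zeros. Some genes that are not deleted in this strain, among them the ribosomal protein genes RPS9B, RPL41A and RPL41B, were also listed at 0 in both libraries. Why they were listed at 0 was not tested, and the reason need not apply to ALD6. These ribosomal protein genes were chosen after their values were seen. A 0 alone thus does not show that a transcript was absent. GAL80, which was replaced in this strain, was listed at 0 in both libraries, as were LEU2, LYS2, URA3 and HIS3, the auxotrophic markers of BY4742. Of the genes that mark mating type, the alpha-specific MF(ALPHA)1 had 317 TPM in YPM, against 427 TPM in YPD2, and STE3 had 72.7 TPM in YPM, against 37.5 TPM in YPD2. The alpha-specific MF(ALPHA)2 was lower, with 15.65 TPM in YPM, against 13.59 TPM in YPD2. Of the a-specific genes, MFA1 and MFA2 were listed at 0 in both, while STE2 had 8.70 TPM in YPM, against 7.43 TPM in YPD2, and STE6 had 13.7 TPM in YPM, against 13.4 TPM in YPD2. The inserted crtI gene had 15061 TPM in YPM and 11513 TPM in YPD2. The annotated genes next to ALD6 still had values. MFM1 (YPL060W), 432 bases past its end, had 57.4 TPM in YPM and 80.4 TPM in YPD2. TIM50 (YPL063W), 1218 bases before its start, had 71.7 TPM in YPM and 89.3 TPM in YPD2. The short open reading frame YPL062W, 288 bases before ALD6, was at 1.10 TPM in YPM, against 2.21 TPM in YPD2.

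Changes are given as log2((YPM + 1)/(YPD2 + 1)) from the TPM, and the added 1 TPM makes changes of low genes look smaller than they are. The comparison covered rows that averaged 1 TPM or more, and the limit was a log2 ratio of 1, up or down. Each medium has 1 library and hence no spread between replicates, so no difference could be tested and no p-value is given. TPM are shares of the RNA in a library, so fewer cells with a transcript and less of it per cell cannot be told apart. Of the 5 members that were compared, 3 were higher in YPM past the limit (ALD3, ALD5 and ALD2), 1 was lower (ACS2) and 1 was within it (ALD4). Among all 6350 rows compared, 3.28% were higher past the limit, 5.15% were lower and 8.43% passed it in either direction. The median log2 ratio over all rows compared was -0.13, and relative to it the members stood at 2.06 for ALD3, 1.33 for ALD5, 1.20 for ALD2, -0.58 for ALD4 and -1.03 for ACS2.

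**Figure D2:**
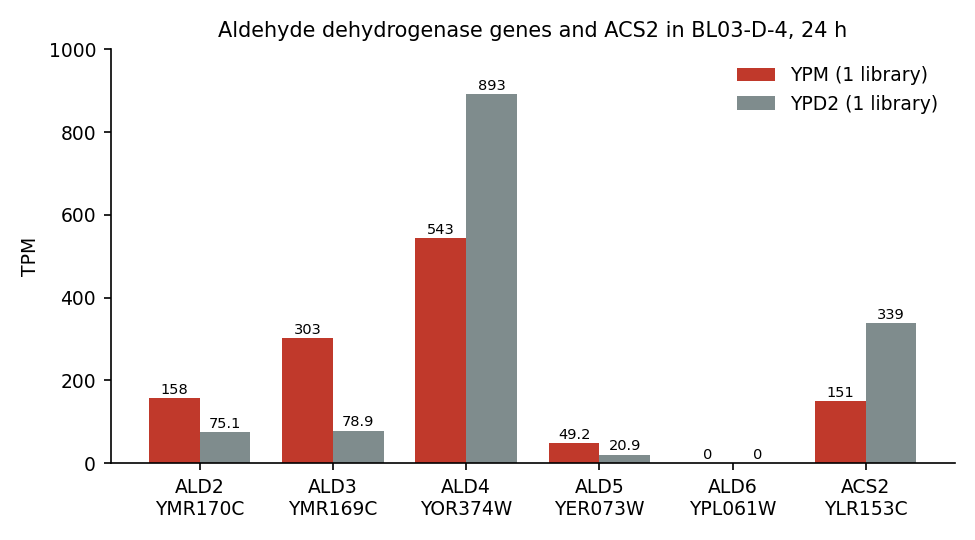
TPM (y axis) of the 6 genes in the YPM library (red, left bar) and the YPD2 library (grey, right bar), 1 library each, so there is no error bar. ALD4 has the highest bar in both media, at 543 TPM in YPM, against 893 TPM in YPD2, and ALD6 is at 0 in both.

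ALD3, a cytosolic enzyme known to be induced by stress and repressed by glucose, changed most of the 6 genes. It was listed at 303 TPM in YPM, against 78.9 TPM in YPD2. The log2 ratio was 1.93, and 1.06% of all rows compared had a ratio as high. By level, ALD3 held rank 530 among all rows in YPM and rank 1953 in YPD2.

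ALD2, its neighbour with the same known regulation, was listed at 158 TPM in YPM, against 75.1 TPM in YPD2. Its log2 ratio of 1.07 lay just past the limit, and 2.90% of rows compared had a ratio as high. In YPD2 both genes had nearly the same level, with 1.05 times as much ALD3 as ALD2. In YPM the TPM of ALD3 was 1.92 times that of ALD2. How much of this unequal change comes from the division of shared reads was not tested. The sum of both rows does not depend on that division between them. It was 462 TPM in YPM and 154 TPM in YPD2, a log2 ratio of 1.58. The genes on either side of the pair did not pass the limit, with log2 ratios of -0.58 for CEP3 and -0.26 for EAR1. These flanking genes, like those of ALD5 and ACS2 below, were chosen after their values were seen.

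ALD5 (YER073W, chrV:304030-305592, plus strand, R64) encodes a mitochondrial enzyme that prefers NADP. It was the least abundant of the expressed ALD genes, with 49.2 TPM in YPM and 20.9 TPM in YPD2. The log2 ratio was 1.20, and 2.31% of rows compared had a ratio as high. Its level held rank 2785 in YPM and rank 4948 in YPD2, so it lay in the lower part of the table in YPD2. RPS24A, a ribosomal protein gene that starts 730 bases past the end of ALD5 on the same strand, had nearly the same log2 ratio of 1.20, with 646 TPM in YPM and 280 TPM in YPD2. VTC1 on the other side stood at -0.23.

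ALD4 (YOR374W, chrXV:1039840-1041399, plus strand, R64) encodes the major mitochondrial enzyme, which is needed for growth on ethanol and is repressed by glucose. It was the most abundant ALD gene in both libraries, with 543 TPM in YPM and 893 TPM in YPD2. Its log2 ratio of -0.72 did not reach the limit, and 10.4% of rows compared had a ratio as low. The difference of -350 TPM was nonetheless the largest of the 6 genes in absolute TPM. Its rank by level was 299 in YPM and 163 in YPD2. The flanking genes, also chosen after their values were seen, were likewise within the limit, with NUD1 at -0.30 and GDH1 at -0.70.

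Within each library the order of the ALD genes by TPM was the same, ALD4, ALD3, ALD2, ALD5 and then ALD6 at 0. Without replicates it is not known which neighbours in this order differ beyond their spread, and ALD3 and ALD2 in YPD2 were the closest pair. The distances between the genes differed between the media. ALD4 had 1.79 times the TPM of ALD3 in YPM and 11.3 times in YPD2.

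The TPM summed over the ALD genes hardly differed between the media, while its make-up did. The sum was 1054 TPM in YPM and 1068 TPM in YPD2, a log2 ratio of -0.02, which became 0.12 when the median gene was set to no change. The mitochondrial isozymes ALD4 and ALD5 together had 592 TPM in YPM and 914 TPM in YPD2, or 56.2% of the sum in YPM and 85.6% in YPD2. The cytosolic isozymes made up the rest, 43.8% in YPM and 14.4% in YPD2, all of it from ALD2 and ALD3. By gene, ALD3 held 28.8% of the sum in YPM and 7.39% in YPD2, and ALD2 held 15.0% in YPM and 7.04% in YPD2. ALD4 held 51.5% in YPM and 83.6% in YPD2, and ALD5 held 4.67% in YPM and 1.96% in YPD2. A shift of scale common to all genes leaves these shares as they are, and the division of reads between ALD2 and ALD3 leaves the split between cytosolic and mitochondrial isozymes as it is. These are shares of transcript estimates, and enzyme amounts were not measured.

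**Figure D3:**
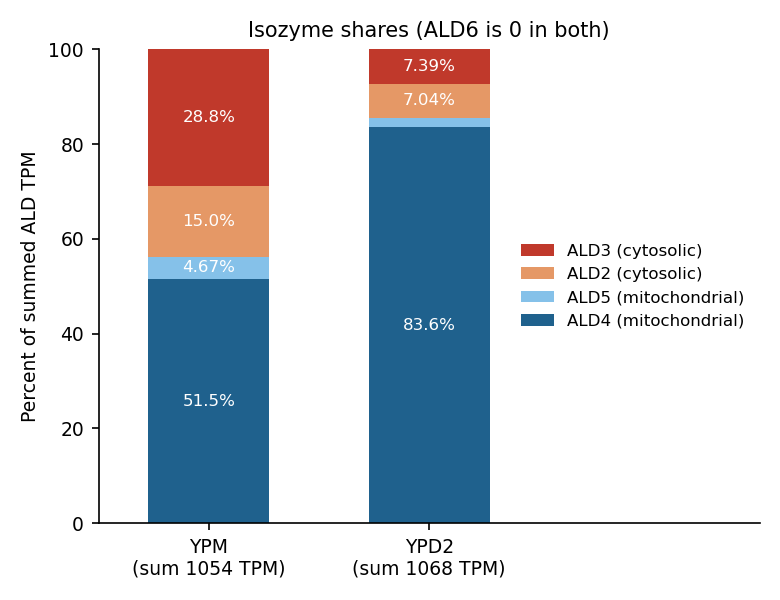
Share of each isozyme in the summed ALD TPM (y axis, percent) in the YPM library (left) and the YPD2 library (right), with the sums under the bars. The cytosolic ALD2 and ALD3 (orange and red) take 43.8% of the sum in YPM and 14.4% in YPD2.

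ACS2 (YLR153C, chrXII:445524-447575, minus strand, R64) encodes the acetyl-CoA synthetase that yeast requires for growth on glucose. It acts on the acetate that the aldehyde dehydrogenases make, and it moved opposite to ALD2, ALD3 and ALD5. ACS2 was listed at 151 TPM in YPM, against 339 TPM in YPD2. The log2 ratio was -1.16, and 3.73% of rows compared had a ratio as low. ACS1, the isoform known for growth on nonfermentable carbon, was also lower, with 452 TPM in YPM and 1762 TPM in YPD2, a log2 ratio of -1.96. Both isoforms together had 603 TPM in YPM, against 2101 TPM in YPD2, and ACS2 made up 25.0% of this in YPM and 16.1% in YPD2. The uncharacterised gene YLR152C, 835 bases past the end of ACS2, stood at -1.23, while RNH203 on the upstream side stood at -0.91.

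**Figure D4:**
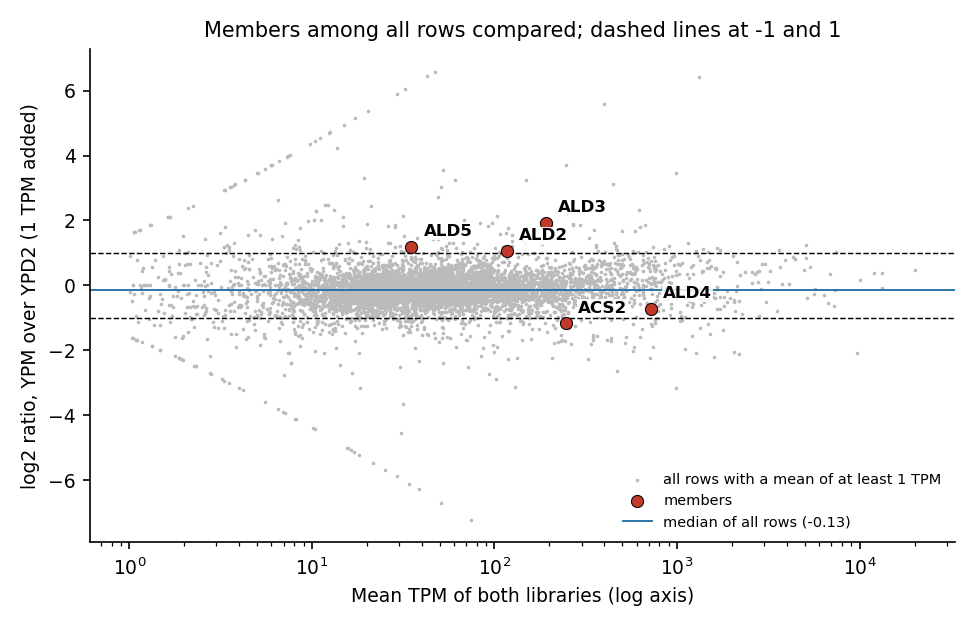
The log2 ratio of YPM over YPD2 with 1 TPM added (y axis) against the mean TPM of both libraries on a log axis (x axis) for the 6350 rows compared (grey) and the 5 members compared (red). ALD3, ALD5 and ALD2 lie above the upper dashed limit of 1, ACS2 lies below the lower limit of -1, and ALD4 lies between the limits at -0.72.

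For each member past the limit, the genes with the most similar pair of levels were looked up among 4927 protein-coding genes that have a symbol and averaged 10 TPM or more. Likeness was the distance between the pairs of log2(TPM + 1) values over the 2 libraries, so it says no more than that level and ratio were close. For ALD3 the nearest was NRG2, a repressor gene, with 305 TPM in YPM and 76.7 TPM in YPD2, at a distance of 0.04, followed by the sterol isomerase gene ERG2 at 0.15. For ALD2 the nearest were the surface protease gene YPS1 at 0.10 and the cell wall kinase gene SLT2 at 0.14. For ALD5 they were the siderophore transporter gene ARN1 at 0.05 and the iron-sulfur scaffold gene ISU2 at 0.16. For ACS2 they were the phosphatidylserine synthase gene CHO1 at 0.05 and ATO2 at 0.13.

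Genes around the members were described with 7 lists. The counts in them stand beside 3.28% of all rows compared that were higher past the limit and 5.15% that were lower. In a list of 15 genes of acetaldehyde and acetate metabolism, 2 were higher and 6 were lower past the limit, with a median log2 ratio of -0.34 beside -0.13 for all rows. The pyruvate decarboxylase genes PDC6 (1.57) and PDC1 (1.13), whose enzymes make the acetaldehyde, were higher. The minor form PDC6 had 186 TPM in YPM, against 62.2 TPM in YPD2, and the major form PDC1 had 1901 TPM in YPM and 869 TPM in YPD2. The lower genes serve the use and movement of ethanol, acetate and ammonia. They were the acetate transporter gene ADY2 (-3.15), ADH2 (-2.20), whose enzyme oxidises ethanol to acetaldehyde, ACS1, the ammonia export genes ATO3 (-1.76) and ATO2 (-1.33), and ACH1 (-1.34). The enzyme of ACH1 is mitochondrial and transfers coenzyme A to acetate. The other decarboxylase gene, PDC5, was low and within the limit, with 7.23 TPM in YPM and 9.31 TPM in YPD2 (-0.33). ADH1, whose enzyme reduces acetaldehyde to ethanol, was also within the limit at 0.90, with 2628 TPM in YPM, against 1403 TPM in YPD2, and passed it once the median gene was set to no change. PDC5 and ADH1 were named after their values were seen.

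Of all rows compared, 8.43% passed the limit in either direction, so a count of none in 12 genes is near that share. The genes listed for the mitochondrial alternative to this route lay within the limit. None of 12 genes for pyruvate import and the pyruvate dehydrogenase complex with its kinases and phosphatases was past it, with a median of -0.30 and values from MPC2 (-0.87), a pyruvate carrier gene, to PTC5 (0.03), a phosphatase gene. Among 10 genes whose enzymes use acetyl-CoA or carry its acetyl group, not all of them in the cytosol, 4 were lower and none was higher. The other 6 were within the limit, and the median was -0.56. The lower genes were the carnitine acetyltransferase genes YAT1 (-1.90), CAT2 (-1.73) and YAT2 (-1.59) and the malate synthase gene MLS1 (-1.56). ERG10, whose enzyme starts the mevalonate pathway, had the highest ratio of the list at 0.55, with 268 TPM in YPM and 183 TPM in YPD2.

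Because Ald6 makes NADPH, 12 other genes of NADPH supply were listed. None of them was higher past the limit, 4 were lower, and the median was -0.40. The lower genes were SOL3 (-1.73) and GND1 (-1.43) of the pentose phosphate pathway, IDP3 (-1.55), a peroxisomal isocitrate dehydrogenase gene, and YEF1 (-1.48), an NADH kinase gene. ZWF1, whose enzyme starts the pentose phosphate pathway, had 202 TPM in YPM, against 205 TPM in YPD2, and was named after its value was seen, and the malic enzyme gene MAE1 had the highest ratio of the list at 0.08.

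Ald2 and Ald3 act in the path from polyamines to beta-alanine and pantothenate. None of 14 other genes listed for that path, for pantothenate uptake and for coenzyme A synthesis was past the limit, and their median was -0.08. The values ran from SPE3 (-0.58), the spermidine synthase gene, to CAB4 (0.49), a gene of coenzyme A synthesis. With 8.43% of all rows compared past the limit in either direction, a count of none in 14 genes is near that share. FMS1, chosen after its value was seen because its polyamine oxidase makes the aldehyde that Ald2 and Ald3 oxidise, stood at 0.16. A list of 4 other genes of the aldehyde dehydrogenase superfamily, which need not be complete, was all within the limit, as were most rows compared. MSC7 stood at 0.83 and the fatty aldehyde dehydrogenase gene HFD1 at -0.34. Between them were the succinate semialdehyde dehydrogenase gene UGA2 at 0.14 and the proline pathway gene PUT2 at -0.06, both named after their values were seen.

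ALD2 and ALD3 are known as stress genes, and 17 genes of the general stress response under the activators Msn2 and Msn4, those activators included, were set beside them. None was higher past the limit, 1 was lower, the glycogen phosphorylase gene GPH1 with 80.1 TPM in YPM and 162 TPM in YPD2, which lay just past it and was no longer past it with 5 TPM added or under any of the 3 rescalings, and the median was -0.10. The abundant stress genes HSP12 (-0.09) and DDR2 (-0.13) had nearly equal TPM in both libraries and were likewise named after their values were seen. GRE3, an aldose reductase gene, had the highest ratio at 0.68. The ratios of ALD3 and ALD2 both lay above those of all 17 listed stress genes. Of all rows compared, only 1.06% had a ratio as high as that of ALD3 and 2.90% as high as that of ALD2. With 3.28% of all rows higher past the limit, a count of none in 17 genes is near that share.

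**Figure D5:**
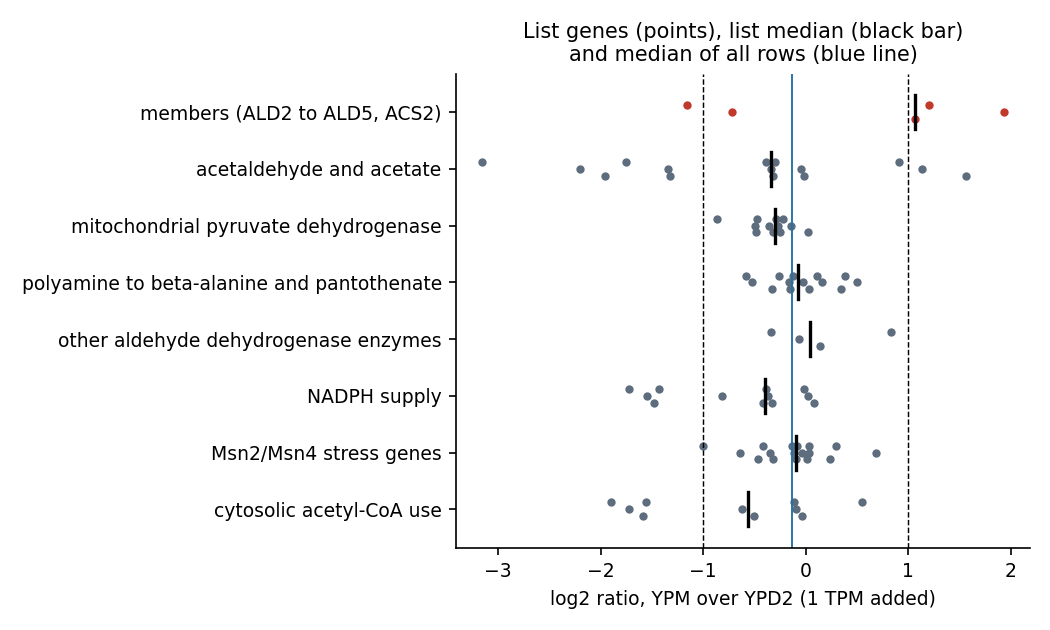
The log2 ratio of YPM over YPD2 with 1 TPM added (x axis) for each gene (point) of the 5 members compared (red) and the 7 lists (grey), with the median of each row as a black bar, the median of all rows as a blue line and the limits of -1 and 1 dashed. The stress genes, the polyamine to pantothenate genes and the mitochondrial pyruvate dehydrogenase genes have no point past the upper limit, and ALD3 lies to the right of every listed gene.

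The bases before the start codons of the genes that were higher are shown, since ALD2 and ALD3 share the start of their coding sequence but little of the sequence before it. Capitals mark the stress response element, CCCCT or its reverse complement AGGGG, which Msn2 and Msn4 bind. The 300 bases lie at chrXIII:600873-601172 on the minus strand for ALD3, chrXIII:603083-603382 on the minus strand for ALD2 and chrV:303730-304029 on the plus strand for ALD5 in R64, and each ends just before the start codon.
ALD3: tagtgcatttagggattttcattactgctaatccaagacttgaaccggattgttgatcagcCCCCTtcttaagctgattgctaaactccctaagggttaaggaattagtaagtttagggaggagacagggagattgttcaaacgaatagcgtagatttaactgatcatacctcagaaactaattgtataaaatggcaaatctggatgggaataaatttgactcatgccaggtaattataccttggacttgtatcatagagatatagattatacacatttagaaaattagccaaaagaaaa
ALD2: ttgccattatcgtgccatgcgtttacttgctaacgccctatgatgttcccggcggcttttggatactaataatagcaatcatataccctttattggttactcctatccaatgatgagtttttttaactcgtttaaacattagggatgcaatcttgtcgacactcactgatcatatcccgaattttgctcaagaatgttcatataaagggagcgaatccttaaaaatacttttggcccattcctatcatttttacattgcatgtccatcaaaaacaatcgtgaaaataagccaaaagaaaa
ALD5: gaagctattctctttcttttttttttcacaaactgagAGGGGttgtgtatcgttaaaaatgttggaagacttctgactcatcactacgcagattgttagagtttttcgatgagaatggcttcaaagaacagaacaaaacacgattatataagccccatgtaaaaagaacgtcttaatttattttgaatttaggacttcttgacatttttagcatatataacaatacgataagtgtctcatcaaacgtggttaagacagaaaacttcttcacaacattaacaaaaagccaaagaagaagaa

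ALD3 had 1 match in these 300 bases, starting at -239 from the start codon, and ALD5 had 1 match, starting at -263. ALD2 had none. ALD4 and ALD6 each had 1 match and ACS2 none. Of the 6020 protein-coding genes of R64 with a window of this length, 22.2% held the motif. In 800 bases, ALD2 and ACS2 still had no match, ALD3, ALD4 and ALD5 had 2 each and ALD6 had 4, beside 48.1% of genes with at least 1 match. The sequence CCAAT or its reverse complement ATTGG, the core of the site of the Hap2/3/4/5 complex that acts on respiratory genes, was also searched. ALD2 was the only member with it in 300 bases, with matches starting at -209 and -194 from the start codon, beside 41.7% of all genes. In 800 bases most members had it, beside 81.5% of genes. ALD2 and ALD4 had 2 matches each, ALD3, ALD6 and ACS2 had 1 each, and ALD5 had none. For every member but ALD5, the 800 bases reach past the edge of the next annotated gene upstream. That gene lies 689 bases from ALD3, 450 from ALD4, 406 from ACS2 and 288 from ALD6. All CCAAT matches of these 4 genes in 800 bases lie farther out than that. So do the stress element matches of ALD6 at -709, -591 and -560. These matches describe the reference sequence, and binding was not measured.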

How the data were processed

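Total RNA of BL03-D-4 was isolated by the authors after 24 h in each medium, and polyA-selected libraries were sequenced. TPM were deposited for each library and come, per the authors, from RSEM. HISAT2 and StringTie also stand in the submitters' processing notes. The genome build, annotation, read length and use of strand are not given in the sources used here. The column named MYPD was read as modified YPD, the medium abbreviated YPM in the labels. The YPM column adds up to 925918 TPM and the YPD2 column to 937091 TPM, and depth is unknown. TPM over all genes of a library have a fixed sum, so with unequal sums the columns cannot both hold all of it. Which part is missing was not tested.

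Of 7126 rows, 6044 were given symbols by matching systematic names to RefSeq R64. Positions and sequences are those of R64 and can differ from the reference the authors used. The log2 ratio used a pseudocount of 1 TPM, rows under a mean of 1 TPM were left out, and the limit was 1. No test was possible with 1 library per medium. The rule for the calls was tried on simulated TPM with planted changes well past the limit. This trial says nothing about calls near the limit. Words of 50 bases were searched on both strands. Coding sequences were aligned globally with Biopython 1.88. Named genes are the members, the genes of each list past the limit or at its ends, the 2 nearest genes to each member past the limit, genes of the strain check and the genes beside ALD6, with others marked as chosen after their values were seen. Members and lists were chosen with earlier results of these data known. Alternatives were a pseudocount of 0.1 or 5 TPM, a minimum mean of 10 TPM or none, limits of 0.5 and 1.5, protein-coding rows only, ALD2 and ALD3 summed, other word lengths, and TPM rescaled to the median gene, over protein-coding rows or without the 20 most abundant rows. Tables were handled with pandas 2.3.3 and numpy 2.4.6 under Python 3.11.15.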

Additional observations from a re-analysis of the deposited data

How the results depend on the processing

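Under the other pseudocounts and scalings, none of 25 values of the 5 members compared changed direction or crossed the limit of 1. The log2 ratio of ALD3 ranged from 1.88 to 2.06, that of ALD2 from 1.03 to 1.20, that of ALD5 from 1.06 to 1.33, that of ALD4 from -0.72 to -0.58 and that of ACS2 from -1.17 to -1.03. At a limit of 1.5, 1 member (ALD3) was higher and 0 were lower, with 110 rows higher and 144 lower over the whole table. At a limit of 0.5, 3 members were higher and 2 were lower, with 630 rows higher and 1213 lower. The whole table gave 208 rows higher and 327 lower at the limit of 1, 203 lower with 5 TPM added, and 255 higher and 255 lower once the median gene was set to no change. Over the ALD rows without ALD2 and ALD3, ALD4 held 91.7% of the TPM in YPM and 97.7% in YPD2. The share of words that ALD2 and ALD3 each hold in common with another place was 29.9%, 22.5% and 15.9% at word lengths of 75, 100 and 150 bases. With the median gene set to no change, 3 genes of the acetaldehyde and acetate list were higher (ADH1 as well as PDC1 and PDC6), and the medians of the stress list and of the polyamine to pantothenate list became 0.04 and 0.05. The stress list had 0 genes lower there, as with 5 TPM added and under both other rescalings. No paired analysis was possible because each medium has 1 library. For the same reason no library could be left out, and the unknown depth leaves low values such as those of ALD5 without an error.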
